A study of Sus scrofa with 6 samples.

Results

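The Wnt genes described here are the transcript rows of a pig embryo expression table whose protein description names a Wnt protein, a frizzled, a dishevelled, an axin, adenomatous polyposis coli (APC), a dickkopf, beta-catenin, or LRP5 or LRP6. The letters of the rule matched 102 of 20523 rows. Of these, 49 were taken only because "axin-" stands inside a longer protein name, such as ataxin, syntaxin or pentraxin, and they were set aside. The remaining 53 rows stand for 47 genes: 18 rows of Wnt ligands, 12 of receptors and co-receptors, 9 of secreted inhibitors, 10 of the cytoplasmic core and 4 others (the Wnt carrier WLS, the Wnt-inducible proteins WISP2 and WISP3, and the frizzled-related membrane protein MFRP). APC, FZD4, LRP5, WNT11, WIF1 and DVL2 have 2 rows each. Of the 53 rows, 45 (44 genes) had enough reads to be tested, and the other 8 had between 1 and 42 reads summed over all 6 libraries.

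Wnt proteins are secreted signals that cells use to set the body axis and to decide cell fate. In the branch that works through beta-catenin, a Wnt ligand binds a frizzled receptor together with the co-receptor LRP5 or LRP6, dishevelled proteins are recruited, and the complex of APC, axin and kinases that normally marks beta-catenin for destruction is switched off. Beta-catenin then enters the nucleus and turns on target genes with TCF and LEF factors. In vertebrate embryos this branch keeps the growing tail end of the axis in a progenitor state and is part of the clock that times somites, the blocks of mesoderm from which vertebrae form. Other Wnt ligands act without beta-catenin and steer cell movements as the axis lengthens.

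The study compared whole Large White pig embryos at 17.5 to 18.0 days post coitum that were homozygous for the mutant alleles of 2 quantitative trait nucleotides of VRTN (QQ) with wild-type embryos (qq, called WT here). The product of VRTN, vertnin, is known for its link with vertebral number in pigs. There were 3 embryos per genotype, and each was genotyped from its own extra-embryonic tissue. Litter and dam are not named in the labels, and the p-values below therefore reflect only how much these 6 embryos varied.

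In units of 1000000 uniquely mapped reads, the libraries held 12.2 to 13.5. WT replicate 3 stood apart, at -61.7 on a first principal component that held 57.7% of the variance, while WT replicates 1 and 2 lay at -9.13 and 1.00 and the QQ libraries between 10.9 and 29.99. Somite, neural tube and heart markers were detected in every library, and their summed RPKM ranges overlapped between genotypes (48.8 to 55.4 in WT and 47.6 to 61.7 in QQ for the somite list). Erythroid markers ranged from 453 to 1491 summed RPKM in WT and from 64.8 to 728 in QQ, with HBB and ALAS2 at 0 reads in at least 1 library. Yolk sac and hepatic endoderm markers ranged from 29.5 to 237 in WT and from 32.1 to 505 in QQ, and the part of these shifts in the Wnt values was not tested. Reads of VRTN were absent from all WT libraries and numbered 2, 0 and 1 in QQ replicates 1, 2 and 3, too few to check the labels by.

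Levels are given as RPKM, reads per kilobase of transcript per 1000000 mapped reads, which allows genes of different length to be compared. Over the rows found, the 6 embryos expressed a broad but uneven Wnt system. Some family genes, such as FZD1, FZD8, WNT6 and WNT7B, had no row under the rule, and sums and shares do not include them. Among the ligands, 3 carried most of the RNA: WNT5B, WNT5A and WNT2 together made up 60.5% to 67.6% of the summed ligand RPKM in each library. WNT5A and WNT5B are best known for signalling without beta-catenin during axis elongation. Over the 6 libraries WNT5B had 17.3 to 30.7 RPKM, WNT5A 12.5 to 18.6 and WNT2 7.47 to 16.5. The range of WNT5A overlapped those of WNT5B and WNT2, which did not overlap each other. Within each library WNT5B was the highest of the 3. WNT5A exceeded WNT2 in every library but WT replicate 2, where WNT2 had 16.5 and WNT5A 14.5 RPKM. The WNT5B row is only 462 bp long and is described as partial. The other 13 tested ligands were far lower, with a highest single-library value of 6.25 RPKM, in WNT3A.

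Of the frizzled receptors, FZD2, FZD7 and FZD10 held 79.9% to 85.2% of the frizzled RPKM. FZD2 was the highest in all 6 libraries, at 85.7 to 116 RPKM. FZD7 followed at 33.4 to 64.9 and FZD10 at 27.1 to 35.3. FZD7 exceeded FZD10 in every library but WT replicate 3, where FZD10 had 34.6 and FZD7 33.4 RPKM. The secreted inhibitors, which bind either Wnt ligands or the co-receptors, had a higher summed RPKM than the ligands. SFRP1 and SFRP5, soluble decoys that carry a frizzled-like Wnt-binding domain, held 68.3% to 74.8% of the inhibitor RPKM, and SFRP1 (108 to 132 RPKM) exceeded SFRP5 (82.9 to 110 RPKM) in every library. Summed inhibitor RPKM was 271 to 324 per library against 75.3 to 82.8 for all ligands. In the cytoplasm, CTNNB1 (beta-catenin) was the highest of all members, at 367 to 548 RPKM, while DVL2, AXIN1 and DVL1 lay between 27.7 and 38.1 RPKM with overlapping ranges. In the other group WLS, which carries Wnt ligands to the cell surface, had a mean of 65.7 RPKM and was the highest.

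**Figure D1:**
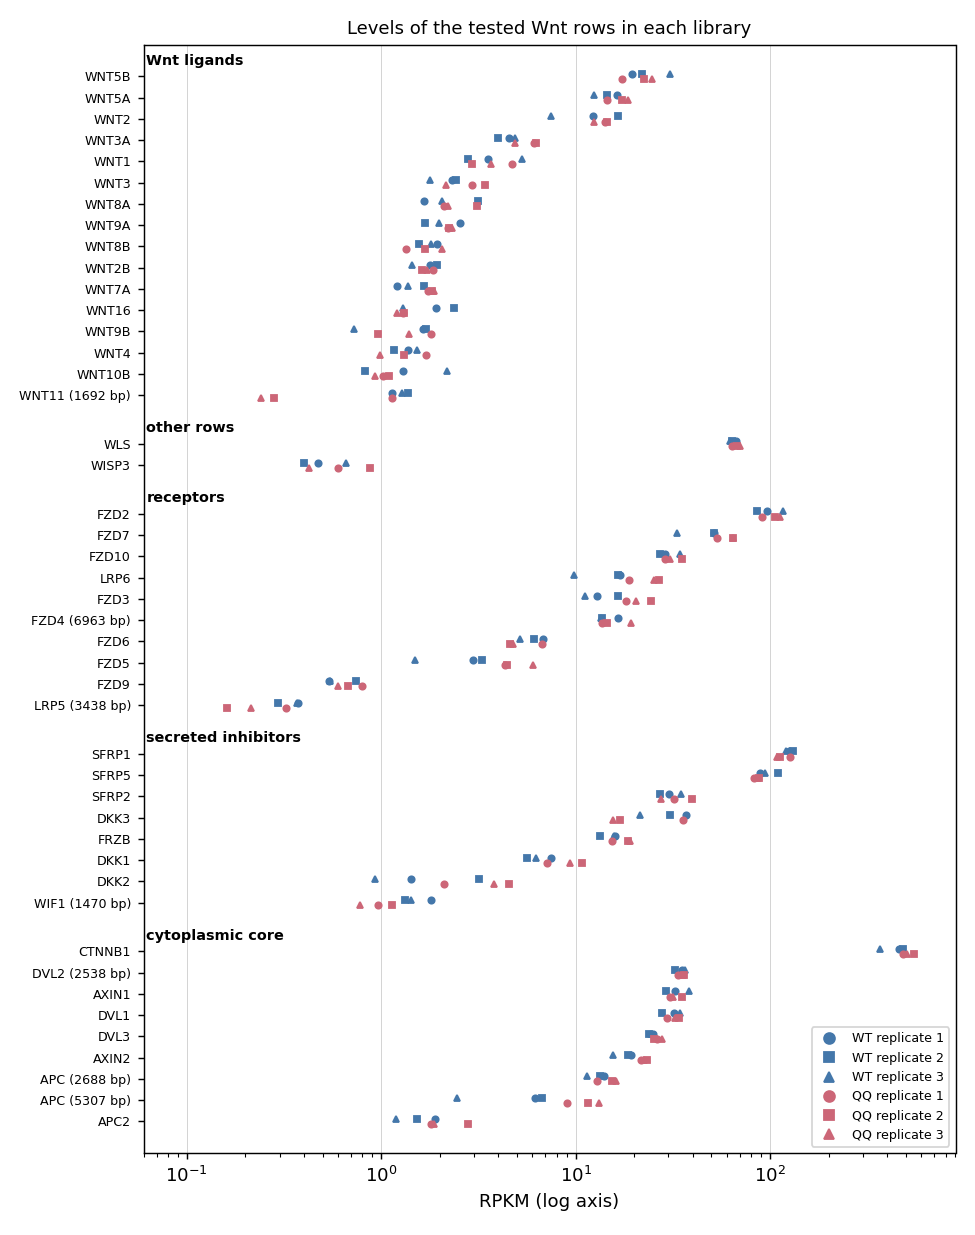
RPKM on a log axis of each tested Wnt row in the 6 libraries, grouped by role and sorted by mean level within a role; blue marks are WT embryos, red marks QQ embryos, and the marker shape gives the replicate number. CTNNB1 lies at 367 to 548 RPKM, WNT5B, WNT5A and WNT2 lead the ligands, and for most rows the blue and red marks overlap.

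How well the transcripts were covered by reads differed among members. Of the 45 tested rows, 20 were covered over at least 90% of their length on average, and the median was 88.2%. Under 50% was covered in 7 rows: WNT2B, WNT4, WNT9B, WNT11, FZD9, LRP5 and WISP3. LRP5 was the extreme, with 2.43% of its 3438 bp row covered on average. It was represented by 16, 13 and 17 reads in WT against 15, 7 and 9 in QQ, and a second row of the same description (3444 bp) held 1 read in each of 2 libraries. LRP5 levels are therefore uncertain, and LRP6 is the co-receptor that these data measure, with 98.3% of its 8870 bp covered.

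The comparison of QQ with WT asked whether the VRTN genotype goes with a different Wnt gene expression. No Wnt row passed the test in either direction: edgeR's quasi-likelihood test, with Benjamini-Hochberg adjustment over all 13957 tested rows, called 0 of 45 higher and 0 lower at an adjusted p under 0.05. It also called 0% of all tested rows in each direction. DESeq2, run on the same counts, called 1 Wnt row higher, the 5307 bp row of APC, and none lower, against 0.738% of all rows higher and 0.0573% lower. At an unadjusted edgeR p under 0.05, 4 members were higher in QQ (8.89% of the 45, against 11% of all rows) and 3 were lower (6.67%, against 9.29%). These shares are close to the background. Leaving out QQ replicate 1 raised the count of 3 to 6, where 10.3% of all rows were lower. Leaving out QQ replicate 2 or WT replicate 1 lowered it to 1, where 2.98% or 8.4% of all rows were lower. Leaving out QQ replicate 3 lowered it to 0, where 2.55% of all rows were lower.

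The fitted differences were balanced around 0. In QQ, 24 of the 45 rows had a log2 fold change above 0 (53.3%, against 49.7% of all rows) and 21 below. Their median was 0.01 on the log2 scale, beside -0.0027 for all rows. The RPKM ranges of the 3 WT and 3 QQ embryos did not overlap in 10 members with higher QQ values (22.2%, against 18.8% of all rows) and in 2 with lower QQ values (4.44%, against 9.07%). RPKM is scaled by read totals alone. The fit also scales by TMM factors, 0.933 for WT replicate 3 and 1.06 and 1.05 for QQ replicates 2 and 3, so narrow gaps in RPKM need not hold there. By role, 6 of 10 receptors, 6 of 9 core rows, 7 of 16 ligands and 4 of 8 inhibitors had a log2 fold change above 0. The members with an unadjusted p under 0.05 were 3 receptors and 1 core row with higher QQ values, and 2 inhibitors and 1 ligand with lower QQ values. Whether the roles differ was not tested.

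WT replicate 3 had the lowest RPKM of the 6 libraries in 17 of the 45 Wnt rows (37.8%), beside 41.4% of all tested rows. WT replicate 2 was the lowest in 14 (31.1%, beside 11.7%). For the genes given below with a log2 fold change of their own, the value without WT replicate 3 is added for those with an unadjusted p under 0.05, and wherever it differs by over 1.5 times. In RNA from a whole embryo, fewer cells of a type and less RNA per cell cannot be told apart.

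**Figure D2:**
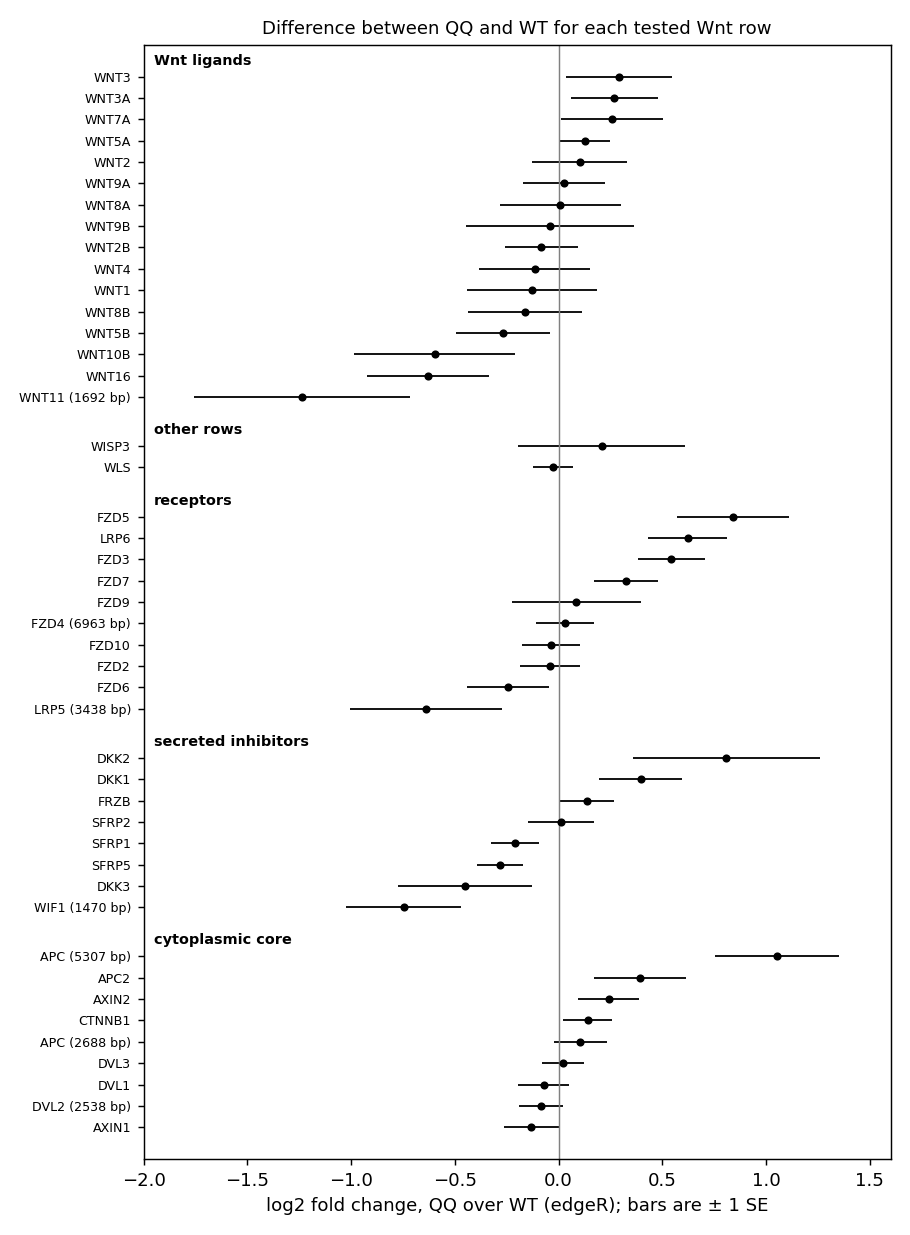
Fitted log2 fold change of QQ over WT from edgeR for each of the 45 tested Wnt rows, grouped by role; bars are ± 1 standard error and the vertical line marks no difference. APC (5307 bp), FZD5, LRP6 and FZD3 lie farthest to the right for the size of their bars, WIF1, SFRP5 and WNT11 (1692 bp) to the left, and none passed the adjusted threshold.

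The ligands had a median log2 fold change of -0.06, with 7 rows above 0 and 9 below. WNT5B had 19.6, 21.9 and 30.7 RPKM in the WT embryos, here and below in the order of their replicate numbers, and 17.3, 22.5 and 24.8 in the QQ embryos. WNT5A had 16.2, 14.5 and 12.5 RPKM in WT and 14.5, 17.4 and 18.6 in QQ. The 2 genotypes overlapped for both genes. The log2 fold change was -0.27 ± 0.23 (standard error; edgeR adjusted p = 0.491) for WNT5B and 0.13 ± 0.12 (edgeR adjusted p = 0.549) for WNT5A. Without WT replicate 3, it was -0.02 for WNT5B and 0.06 for WNT5A. WNT3A, the ligand that maintains tail-end progenitors and drives the somite clock, had 4.55, 3.98 and 4.86 RPKM in WT and 6.11, 6.25 and 4.89 in QQ. In RPKM, scaled by read totals alone, all 3 QQ values lay above the WT values, although replicate 3 of both genotypes nearly met. With 54 to 87 reads per library, the log2 fold change was 0.27 ± 0.21 (edgeR adjusted p = 0.452). The only other ligand whose groups did not overlap was WNT7A, a ligand known from limb and nervous system patterning, named after its values were seen. It had 1.20, 1.67 and 1.38 RPKM in WT and 1.75, 1.82 and 1.87 in QQ. With 21 to 33 reads per library, its log2 fold change was 0.26 ± 0.25 (edgeR adjusted p = 0.543).

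WNT11, which guides cell movements at gastrulation and is also a Wnt target, was the 1 ligand with an unadjusted p under 0.05, but its values are uncertain because 2 rows carry the same description. The 1692 bp row had 24, 30 and 29 reads in WT and 26, 6 and 5 reads in QQ, a log2 fold change of -1.24 ± 0.52 (edgeR unadjusted p = 0.0402, adjusted p = 0.235), and of -1.20 without WT replicate 3. QQ replicate 1 lay inside the WT range, and the low values were those of QQ replicates 2 and 3. The 1583 bp row, which had too few reads to be tested, had 7, 0 and 5 reads in WT and 3, 7 and 20 reads in QQ, with its highest value in QQ replicate 3. Added together, both rows held 31, 30 and 34 reads across WT against 29, 13 and 25 across QQ, or 2.48, 2.34 and 2.53 reads per 1000000 in WT and 2.15, 1.03 and 2.05 in QQ. The sums did not overlap, but the gap was largest in QQ replicate 2 and small in the other QQ libraries. On average 18.4% of the 1692 bp row and 8.87% of the 1583 bp row were covered by reads.

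WLS had 66.6, 63.7 and 62.2 RPKM in WT and 63.7, 68.1 and 70.1 in QQ. It varied least of all tested members, with a coefficient of variation of 4.61% over the 6 libraries, and its log2 fold change was -0.03 ± 0.10 (edgeR adjusted p = 0.88). WISP3, a matrix-associated protein of the CCN family and the other tested member outside the main roles, had 7 to 15 reads per library and overlapping groups, with a log2 fold change of 0.21 ± 0.40 (edgeR adjusted p = 0.772). For WISP3, leaving out WT replicate 3 gave 0.46 and leaving out QQ replicate 2 gave -0.07. No ligand and neither of these 2 rows passed the test. Summed ligand RPKM was 77.8 ± 2.31 in WT and 80.6 ± 3.86 in QQ (mean ± SD, n = 3 each).

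The receptors included 3 of the 4 members with higher QQ values at an unadjusted p under 0.05. LRP6, the co-receptor that passes the Wnt signal to the axin complex, had 17.0, 16.5 and 9.78 RPKM in WT and 18.9, 26.7 and 25.4 in QQ. Every QQ embryo lay above every WT embryo, with WT replicate 3 well below the rest and QQ replicate 1 near WT replicates 1 and 2. The log2 fold change was 0.62 ± 0.19 (edgeR unadjusted p = 0.00947, adjusted p = 0.233), and 0.42 without WT replicate 3. LRP6 is also the longest member, at 8870 bp. After each library's trend with transcript length was removed, its log2 fold change was 0.36.

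FZD3, a receptor known for planar cell polarity and axon guidance, had 12.9, 16.4 and 11.2 RPKM in WT and 18.1, 24.6 and 20.4 in QQ. The groups did not overlap, and the log2 fold change was 0.54 ± 0.16 (edgeR unadjusted p = 0.00763, adjusted p = 0.233). It was 0.45 without WT replicate 3 and 0.52 with the length trend removed. FZD5, a receptor of the beta-catenin branch with known roles in the eye and yolk sac, had 2.98, 3.29 and 1.50 RPKM in WT and 4.32, 4.46 and 6.01 in QQ. Again no QQ value reached the WT range, and WT replicate 3 was the lowest. The log2 fold change of FZD5 was 0.84 ± 0.27 (edgeR unadjusted p = 0.0117, adjusted p = 0.233), and 0.58 without WT replicate 3.

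The abundant frizzleds differed less. FZD7 had 51.6, 51.7 and 33.4 RPKM in WT and 53.4, 64.5 and 64.9 in QQ, a log2 fold change of 0.33 ± 0.15 (edgeR adjusted p = 0.26) that was 0.17 without WT replicate 3. Its groups did not overlap, but QQ replicate 1 exceeded WT replicates 1 and 2 only slightly. FZD2 had 96.0, 85.7 and 116 RPKM in WT and 91.5, 107 and 113 in QQ, with the highest value in WT replicate 3. Its groups overlapped, and the log2 fold change was -0.04 ± 0.14 (edgeR adjusted p = 0.877), and 0.12 without WT replicate 3. The remaining tested receptor rows, of FZD4 (6963 bp), FZD6, FZD9, FZD10 and LRP5, all had overlapping groups, and their log2 fold changes lay between -0.64 (LRP5) and 0.09 (FZD9, 0.03 without WT replicate 3). The untested 1758 bp row of FZD4 had 1 read in WT replicate 2, none in the other WT libraries and 3 in each QQ library, counts at or under the floor of 3 reads. The summed receptor RPKM was 233, 222 and 226 in WT and 237, 282 and 285 in QQ. QQ replicates 2 and 3 were high, and QQ replicate 1 was close to WT.

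**Figure D3:**
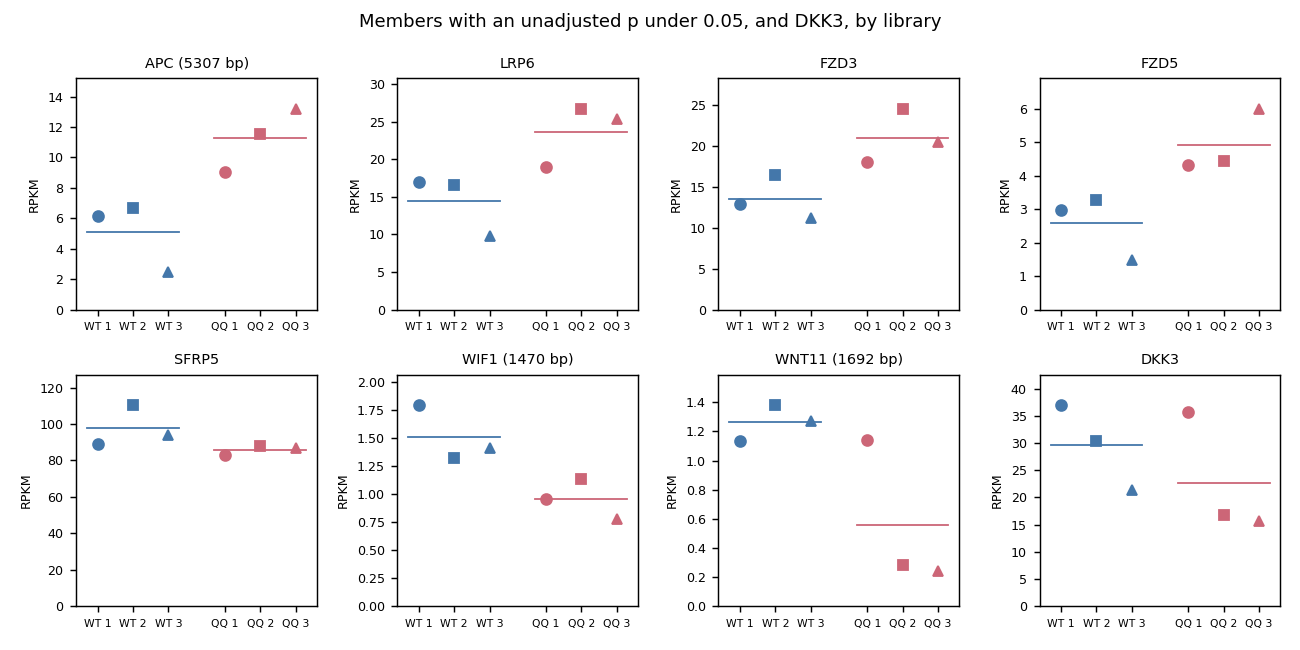
RPKM per library of the 7 members with an unadjusted edgeR p under 0.05, and of DKK3; points are single embryos (WT blue, QQ red), lines are group means over 3 embryos, and each panel starts at 0. In APC (5307 bp), LRP6, FZD3 and FZD5 every QQ point lies above every WT point and WT replicate 3 is lowest, while in WNT11 (1692 bp) and DKK3 QQ replicate 1 lies inside the WT range.

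Among the secreted inhibitors, 4 rows had a log2 fold change above 0 and 4 below, with a median of -0.10. SFRP5 had 89.1, 110 and 93.9 RPKM in WT and 82.9, 87.8 and 86.8 in QQ. All QQ values lay below the WT values, the closest pair being 89.1 and 87.8. The log2 fold change was -0.28 ± 0.11 (edgeR unadjusted p = 0.0285, adjusted p = 0.233) and stayed at -0.29 without WT replicate 3. WIF1, which binds Wnt ligands directly and is made in the somites among other tissues, was counted on its 1470 bp row with 33, 25 and 28 reads across WT against 19, 21 and 14 across QQ. That corresponds to 1.80, 1.32 and 1.42 RPKM in WT and 0.959, 1.14 and 0.780 in QQ, without overlap. Its log2 fold change was -0.75 ± 0.28 (edgeR unadjusted p = 0.0238, adjusted p = 0.233), and -0.77 without WT replicate 3. A second WIF1 row of 464 bp had 6, 3 and 5 reads in WT and 4, 7 and 1 reads in QQ and was not tested. Its groups overlapped, with the highest count in QQ replicate 2, so the lack of overlap holds for the 1470 bp row alone.

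SFRP1, the most abundant inhibitor, had 125, 132 and 121 RPKM in WT and 127, 113 and 108 in QQ. QQ replicate 1 lay inside the WT range and QQ replicates 2 and 3 below it, with a log2 fold change of -0.21 ± 0.12 (edgeR adjusted p = 0.308). SFRP2, a related decoy, had 30.2, 27.2 and 34.7 RPKM in WT and 32.2, 39.8 and 27.5 in QQ. FRZB, also known as SFRP3, had 15.9, 13.3 and 15.7 RPKM in WT and 15.3, 18.7 and 19.0 in QQ. Both overlapped, at log2 fold changes of 0.01 ± 0.16 (edgeR adjusted p = 0.969) and 0.14 ± 0.13 (edgeR adjusted p = 0.534). For SFRP2 the value was 0.14 without WT replicate 3 and -0.12 without QQ replicate 2. For FRZB it was 0.05 without WT replicate 2.

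The dickkopfs include the best-known blocker of the co-receptors. DKK1 binds LRP5 and LRP6 and is itself a Wnt target. It had 7.49, 5.59 and 6.24 RPKM in WT and 7.12, 10.8 and 9.32 in QQ, with QQ replicates 2 and 3 above all WT embryos and QQ replicate 1 among them. The log2 fold change was 0.40 ± 0.20 (edgeR unadjusted p = 0.0793, adjusted p = 0.28). DKK3, a divergent member of the family, was named after its values were seen. It had 37.0, 30.4 and 21.4 RPKM in WT and 35.7, 16.8 and 15.7 in QQ. QQ replicate 1 was again on the WT side, this time with QQ replicates 2 and 3 low, and the log2 fold change was -0.45 ± 0.32 (edgeR adjusted p = 0.414). That value depended on single libraries: it was -0.99 without QQ replicate 1, between -0.27 and -0.23 without QQ replicate 2, QQ replicate 3 or WT replicate 1, and -0.62 without WT replicate 3.

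In the cytoplasmic core, 6 rows had a log2 fold change above 0 and 3 below, with a median of 0.10. CTNNB1 had 460, 483 and 367 RPKM in WT and 484, 548 and 507 in QQ. The groups did not overlap in RPKM, scaled by read totals alone, but WT replicate 2 and QQ replicate 1 nearly met. The log2 fold change was 0.14 ± 0.12 (edgeR adjusted p = 0.483). Without WT replicate 3 it was 0.05. AXIN2, a scaffold of the destruction complex and a widely used direct target of beta-catenin signalling that cycles in the presomitic mesoderm, had 19.3, 18.7 and 15.6 RPKM in WT and 21.8, 23.2 and 22.4 in QQ. Every QQ embryo was above every WT embryo, with an SD of 1.99 in WT and 0.69 in QQ. The log2 fold change was 0.24 ± 0.15 (edgeR unadjusted p = 0.134, adjusted p = 0.348), and 0.18 without WT replicate 3.

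AXIN1, the constitutive axin, had 32.4, 29.2 and 38.1 RPKM in WT and 30.7, 35.4 and 31.5 in QQ, with a log2 fold change of -0.13 ± 0.13 (edgeR adjusted p = 0.566) that was 0.01 without WT replicate 3. The dishevelleds, which link frizzled to the axin complex, were among the steadiest members. DVL1 had 32.1, 27.7 and 34.4 RPKM in WT and 29.7, 33.9 and 32.5 in QQ. DVL2 had 35.3, 32.3 and 36.7 RPKM in WT and 33.8, 36.1 and 35.5 in QQ. Both overlapped, with log2 fold changes of -0.07 ± 0.12 and -0.08 ± 0.11 (edgeR adjusted p = 0.741 and 0.652), of the opposite sign with read totals as the only scaling. Without WT replicate 3 they were 0.03 and -0.01. DVL3 had 25.1, 23.8 and 24.4 RPKM in WT and 26.3, 25.3 and 27.8 in QQ. Its RPKM groups just failed to overlap, but the log2 fold change was 0.02 ± 0.10 (edgeR adjusted p = 0.919; 0.05 without WT replicate 3), because the fit scales libraries by TMM factors of 0.933 to 1.06 and RPKM by read totals alone. Read totals alone placed the median of all tested rows 0.08 to 0.09 higher in QQ on the log2 scale. Over the 6 libraries the coefficient of variation was 8.04% for DVL1, 4.65% for DVL2 and 5.64% for DVL3.

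APC, the scaffold that holds beta-catenin in the destruction complex, gave the smallest unadjusted p of all members, on 1 of its 2 rows. The 5307 bp row (ENSSSCT00000015525) had 6.18, 6.69 and 2.47 RPKM in WT and 9.06, 11.5 and 13.2 in QQ. No values overlapped, and WT replicate 3 was the lowest by far. Its log2 fold change was 1.05 ± 0.30 (edgeR unadjusted p = 0.00617, adjusted p = 0.233), resting on 176 reads for WT replicate 3 against 410 to 856 elsewhere. DESeq2 gave 1.06 ± 0.29 with an adjusted p of 0.0377. Without WT replicate 3 the log2 fold change was 0.73 (edgeR unadjusted p = 0.000425, adjusted p = 0.174).

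The 2688 bp row of APC (ENSSSCT00000030510) did not show this difference. It had 13.97, 13.3 and 11.4 RPKM in WT and 12.9, 15.3 and 16.2 in QQ, with overlapping groups and a log2 fold change of 0.10 ± 0.13 (edgeR adjusted p = 0.638), and of 0.05 without WT replicate 3. The RPKM of the 5307 bp row divided by that of the 2688 bp row was 0.443, 0.503 and 0.216 in WT and 0.700, 0.751 and 0.818 in QQ. These ratios cancel library scaling, and they did not overlap between genotypes. Their numerator is the 5307 bp row, whose groups already lay apart, so the ratio is not separate evidence. With 3 embryos against 3 an exact two-sided permutation test cannot go below p = 0.10. Reads covered 96.1%, 95.0% and 65.4% of the 5307 bp row in WT and 97.8%, 98.5% and 99.2% in QQ, so WT replicate 3 was also the library with the least of this row covered. Which parts of the gene the 2 rows represent was not examined. APC2, a related scaffold known mainly from neural tissue, had 1.89, 1.52 and 1.19 RPKM in WT and 1.80, 2.79 and 1.88 in QQ, with overlapping groups and a log2 fold change of 0.39 ± 0.22 (edgeR adjusted p = 0.314), and of 0.26 without WT replicate 3.

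**Figure D4:**
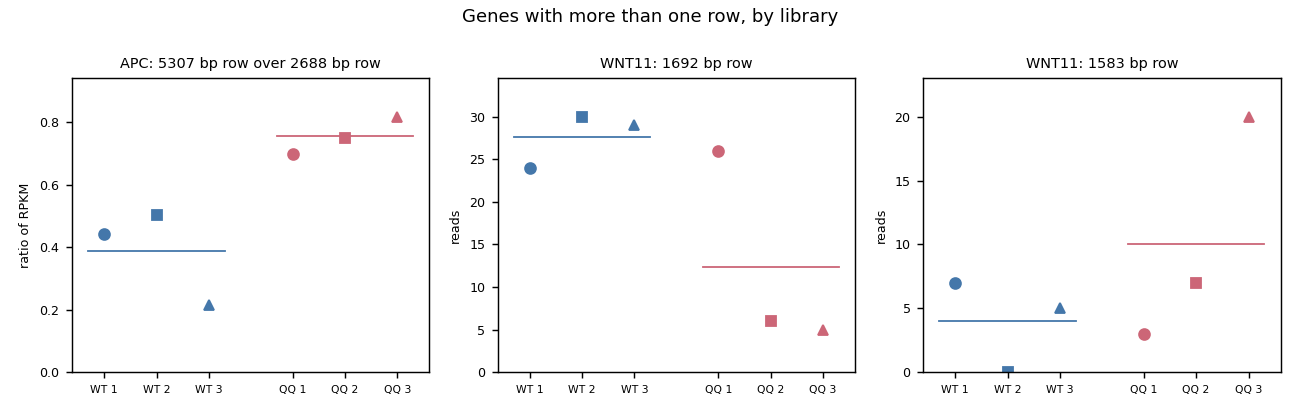
Left, the RPKM ratio of the 2 APC rows (5307 bp over 2688 bp) in each library; middle and right, reads of the 1692 bp and 1583 bp rows of WNT11; points are single embryos, lines are group means, and axes start at 0. The APC ratio is 0.216 to 0.503 in WT and 0.700 to 0.818 in QQ, while reads of the WNT11 rows are low and high, respectively, in QQ replicate 3.

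How much a member varied among embryos differed widely. The coefficient of variation over all 6 libraries was under 6% for WLS, DVL2 and DVL3. It reached 47.7% for the 5307 bp row of APC, 52.8% for DKK2 and 56.1% for the 1692 bp row of WNT11. DKK2 and WNT11 had between 5 and 32 reads per library, so counting error alone is large for them. The rows that were not tested were the second rows of WNT11, FZD4, LRP5, WIF1 and DVL2, and the single rows of WNT10A, MFRP and WISP2. For WNT10A (2 reads in all), WISP2 (1 read in all) and the second rows of LRP5 and DVL2, no statement on genotype was possible at this depth.

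A list of 70 further Wnt pathway genes that the description rule does not reach was read beside the members. Of these, 52 had a row and 48 were tested. None passed edgeR's adjusted threshold in either direction, and DESeq2 called 1 higher (PYGO1) and none lower. In all, 31 had a log2 fold change above 0 (64.6%, against 49.7% of all tested rows) and 17 below, with a median of 0.09. At an unadjusted edgeR p under 0.05, 10 had higher QQ values (20.8%, against 11% of all rows) and 3 lower (6.25%, against 9.29%). Leaving out QQ replicate 2 or 3 lowered the count of 10 to 6 or 4, where 5.7% or 5.1% of all rows were higher. It lowered the count of 3 to 1 or 0, where 2.98% or 2.55% of all rows were lower. Leaving out WT replicate 2 raised the count of 3 to 6, where 11% of all rows were lower. Without WT replicate 3 there were 8 higher and 2 lower, where 8.76% of all rows were higher and 4.98% lower. WT replicate 3 was the lowest library in 25 of the 48 genes (52.1%, beside 41.4% of all tested rows).

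The subgroup nearest to the core members, genes of the destruction complex and of cytoplasmic and polarity signalling, had 16 tested genes. It held 6 of the 10 genes with higher QQ values at an unadjusted edgeR p under 0.05 (37.5% of the 16, against 11% of all rows). It held 1 of the 3 with lower (6.25%, against 9.29%). Of its 16 genes 13 were above 0 (81.2%, against 49.7% of all rows), with a median of 0.38. The log2 fold changes of the 6 genes ran from 0.39 (CELSR3, 10235 bp) to 1.06 (TNKS). With each library's length trend removed they ran from 0.07 (CELSR3) to 0.98 (TNKS). WT replicate 3 was the lowest library in 12 of the 16 (75%, beside 41.4% of all rows). Without WT replicate 3 the 6 genes with higher QQ values kept an unadjusted edgeR p under 0.05 (from 0.000886 to 0.0474). So did the 1 gene with lower values (0.0169). The parts of this library and of transcript length in the pattern were not tested, nor were the subgroups compared by a test. TNKS, tankyrase, which marks axin for degradation, had 10.6, 10.9 and 3.64 RPKM in WT and 14.1, 19.6 and 21.8 in QQ. Its log2 fold change was 1.06 ± 0.33 (edgeR adjusted p = 0.233), and 0.71 without WT replicate 3. FBXW11, a subunit of the ligase that ubiquitinates beta-catenin, had 13.6, 14.6 and 7.59 RPKM in WT and 18.3, 21.9 and 22.3 in QQ, a log2 fold change of 0.72 ± 0.23 (edgeR adjusted p = 0.233) that was 0.49 without WT replicate 3. In both genes the groups did not overlap and WT replicate 3 was lowest, as in the 5307 bp row of APC, LRP6, FZD3 and FZD5. CSNK1E, a casein kinase that acts on dishevelled and LRP6, was the 1 gene of the subgroup with lower QQ values at an unadjusted p under 0.05 and was named after its values were seen. It had 36.2, 34.3 and 38.3 RPKM in WT and 30.8, 31.6 and 30.3 in QQ, a log2 fold change of -0.33 ± 0.11 (edgeR adjusted p = 0.233), and of -0.26 without WT replicate 3.

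Among receptors and their turnover, LGR4, the R-spondin receptor that protects frizzled and LRP6 from removal, had 17.4, 17.3 and 9.85 RPKM in WT and 23.6, 23.8 and 24.2 in QQ. The QQ embryos were nearly equal and all above WT, with a log2 fold change of 0.60 ± 0.18 (edgeR adjusted p = 0.233) and of 0.39 without WT replicate 3. ROR1, a receptor for WNT5A, had a log2 fold change of 0.41 ± 0.20 (edgeR adjusted p = 0.271), and 0.18 without WT replicate 3. Outside the cell, the R-spondin RSPO4, a ligand of the LGR receptors, had 6.73, 5.14 and 5.69 RPKM in WT and 4.79, 4.06 and 2.46 in QQ. The groups did not overlap, and the log2 fold change was -0.72 ± 0.29 (edgeR adjusted p = 0.233), and -0.71 without WT replicate 3. KREMEN1, a partner of DKK1, had a log2 fold change of 0.30 ± 0.26 (edgeR adjusted p = 0.499), and of 0.11 without either WT replicate 3 or QQ replicate 1.

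In the nucleus 6 of 12 genes were above 0, with a median of -0.01. PYGO1, a co-activator that binds the beta-catenin complex, had 9.05, 11.1 and 3.37 RPKM in WT and 15.4, 20.6 and 18.3 in QQ, a log2 fold change of 1.12 ± 0.33 (edgeR adjusted p = 0.233, DESeq2 adjusted p = 0.0473). Without WT replicate 3 it was 0.77. TLE3, a co-repressor, had a log2 fold change of 0.54 ± 0.22 (edgeR adjusted p = 0.234) with overlapping groups, and of 0.44 without WT replicate 3. Reads covered only 12.5% to 17.1% of its 2340 bp row in each library, so its values are uncertain. Known Wnt target genes report on the output of the pathway, but of 21 listed symbols only 14 had a row and 13 were tested. SP5, TBXT, NOTUM, LGR5, RNF43 and ZNRF3 had no row, and the targets AXIN2 and DKK1 were counted among the members instead. The output of the pathway was therefore measured only in part. The 13 tested targets had 7 log2 fold changes above 0 and a median of 0.01. At an unadjusted edgeR p under 0.05, none had higher QQ values (against 11% of all rows) and 1 had lower (7.69%, against 9.29%). That gene was LEF1, both a target and a transcription factor of the pathway, with 39.0, 39.4 and 44.5 RPKM in WT and 34.1, 37.9 and 37.5 in QQ. Its log2 fold change was -0.27 ± 0.11 (edgeR adjusted p = 0.234), and -0.17 without WT replicate 3. MYC, a growth regulator, had a log2 fold change of 0.24 ± 0.15 (edgeR adjusted p = 0.342) with overlapping groups. It was 0.14 for MYC without WT replicate 3 and 0.12 without QQ replicate 1.

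**Figure D5:**
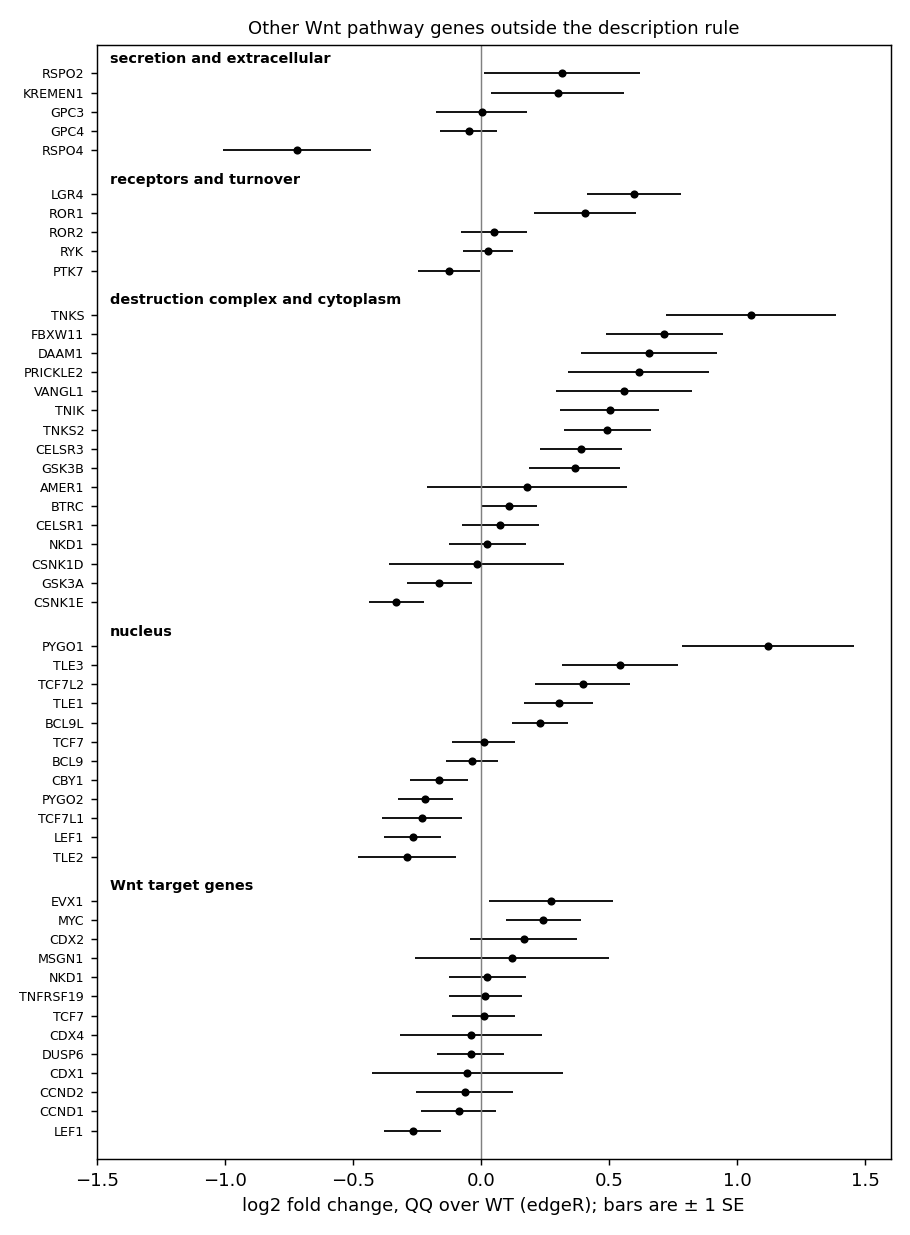
Fitted log2 fold change of QQ over WT from edgeR for the 48 tested genes of the further pathway list, by subgroup; bars are ± 1 standard error, and LEF1, TCF7 and NKD1 appear in 2 subgroups. Most genes of the destruction complex and cytoplasm lie to the right of 0, the target genes lie around 0, and none passed the adjusted threshold.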

How the data were processed

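TruSeq libraries of total RNA from 6 embryos were sequenced by Illumina HiSeq, per the labels. Reads were placed on Sscrofa 10.2, per the submitters' processing notes. Aligner, counter and strand setting: not given in the sources used here. Per the file headers, the deposited table gives for each Ensembl transcript its length in bases and, per library, the count of uniquely mapped reads, the covered length in percent, and the RPKM, as the authors computed them. The deposited RPKM equals count over length and read total within a relative gap of 1.29e-07. In each library 3 reads, taken as the floor, are 0.222 to 0.246 reads per 1000000; this covers counting error only.

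Counts were tested with edgeR 4.0.16 (R 4.3.3): TMM scaling, its standard filter on low counts (at least 10, with a total of at least 15, keeping 13957 rows), quasi-likelihood fits on all 6 libraries without covariates, and Benjamini-Hochberg adjustment over all tested rows at 0.05. All pairs of libraries of the same genotype differed by more than sampling noise, and pairs across genotypes were not compared in this way. The scripts were tested on simulated data. DESeq2 1.42.0, limma 3.58.1 on log2(RPKM + 0.5) and on log2(RPKM + 0.1), quantile normalization, other filters and scaling, removal of each library's loess trend with length (span 0.4), the replicate block and leaving out each library were alternatives. Symbols came from the protein descriptions of members and, for other genes, from the deposited protein matches looked up in Sscrofa11.1 gene tables without use of positions. Members named with all values were the core, the co-receptors, ligands and inhibitors known for axis elongation, the 2 highest members per role, members with an unadjusted p under 0.05, and, of the further list, the 2 genes per subgroup with the smallest p. Members and lists were chosen with earlier results of these data known. Figures were drawn with matplotlib 3.10.9.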

Additional observations from a re-analysis of the deposited data

How the results depend on the processing

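Of 37 named results, 28 kept their direction under every alternative and 9 did not. The 9 lay at most about 1 standard error from 0 in edgeR with all libraries, and the cause of the reversals was not tested. With limma on read totals at pseudocounts of 0.1 and 0.5, the log2 fold change became 0.0312 and 0.0307 for DVL1, 0.0168 and 0.0166 for DVL2, 0.0677 and 0.0674 for FZD2, and 0.0685 and 0.0681 for WLS. Quantile normalization gave 0.105 for FZD2 and 0.0874 for WLS. Removing the length trend gave -0.102 for DVL3, -0.0131 for SFRP2 and -0.00243 for WNT5A. When libraries were left out in turn, AXIN1 ranged from -0.228 to 0.01 (the latter without WT replicate 3), DVL1 from -0.166 to 0.0276 (without WT replicate 3), DVL3 from -0.00931 to 0.0717, FZD2 from -0.148 to 0.117 (without WT replicate 3), SFRP2 from -0.115 to 0.139, and WISP3 from -0.0659 (without QQ replicate 2) to 0.465.

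No member was called higher except by DESeq2 (1), and 0 were called lower under any alternative. Members with higher values at an unadjusted p (4) numbered 7 with limma at either pseudocount, where 14.7% and 15% of all rows did. Those with lower values (3) numbered 1 among rows with a mean of at least 2 RPKM, where 10% of all rows did. They numbered 0 to 6 when single libraries were left out, where 2.55% to 11% of all rows did. The members' median (0.0117) was -0.0686 with the length trend removed, and 0.114 and 0.101 with limma, where the median of all rows was -0.071, 0.090 and 0.081. For the further pathway list, DESeq2 called 1 higher. Its 10 genes with higher values numbered 6 after quantile normalization, where 10.1% of all rows did. They numbered 4 to 12 when libraries were left out, where 5.1% to 15% of all rows did. Its 3 with lower values numbered 1 with DESeq2, where 7.85% of all rows did. They numbered 0 to 6 when libraries were left out, where 2.55% to 11% of all rows did. Its median (0.0928) was -0.027 with the length trend removed, and 0.164 and 0.16 with limma.

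Same-numbered libraries did not deviate together (correlations -0.191, 0.213 and -0.0558), so the replicate numbers are not taken as pairs. With the replicate number as a block, 4 members were higher and 3 lower at an unadjusted p, 0 were called, and the median was 0.019. In the further list 7 were higher and 2 lower. Of all rows, 10.8% were higher and 5.6% lower in that fit. Members with few reads, such as WNT11, LRP5, WISP3 and DKK2, are limited by counting error. A planned count of a TCF and LEF motif in promoters was not run.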

Other observations

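DRAXIN, a secreted inhibitor that acts on Wnt signalling and on axons, was among the rows set aside, since it was matched only through letters inside its name. Its 5550 bp row had 11, 21 and 18 reads in WT replicates 1 to 3 and 17, 17 and 9 reads in QQ replicates 1 to 3. The groups overlapped. Between 1.5% and 1.66% of the row was covered by reads in each library, so the values rest on a short stretch of the transcript and are uncertain.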
